A study of Mus musculus with 4 samples.

Results

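The circadian clock genes Arntl, Clock, Npas2, Per1, Per2, Per3, Cry1, Cry2, Nr1d1 and Dbp were followed in RNA-seq of mouse intestinal crypts. These 10 genes were chosen by name from the 53845 genes of the count table, and 10 of the 10 were among the 17504 genes with enough counts to be tested. Crypts had been released with EDTA from intestines of C57BL/6 mice. There were 2 libraries of WT mice, labelled wildtype, and 2 of Vil-CREPTKO mice. In the latter, Cre under the villin promoter deletes a floxed exon of the CREPT gene (Rprd1b) in the intestinal epithelium and leaves it in other cells. Counts of Rprd1b cover the whole gene and not that exon alone. No injury or drug is named for either group. Neither the age of each mouse nor the hour of its death was given in the labels, and whether the WT mice carried floxed alleles or Cre was not stated there either.

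The circadian clock is a feedback loop of transcription that most cells run over each day. BMAL1 (encoded by Arntl) pairs with CLOCK or its relative NPAS2 and switches on the Per and Cry genes, whose proteins return to the nucleus and block that pair. In a coupled loop the same pair switches on Nr1d1, whose product REV-ERBα represses Arntl, and Dbp, whose product acts through D-box elements. In mouse tissues Arntl RNA is known to peak near the end of the night, Nr1d1 and Dbp RNA during the day, and Per2 RNA in the evening. The clock of the gut epithelium is known to be set largely by feeding.

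The elements through which this loop works were looked for in promoter windows of RefSeq (GRCm38.p6), which run from 250 bases before to 50 bases after a start site. Windows were present for 9 of the 10 genes, Per2 being the gene without one. The letters searched, on both strands, were CACGTG (E-box, bound by BMAL1 with CLOCK), CACGTT (an E-box variant), TTATGTAA (D-box, bound by DBP), TAGGTCA and TGGGTCA (elements of the ROR and REV-ERB receptors) and TGACGTCA (CRE). No match of one motif overlapped that of another in these windows. The 4 windows below are some of those that hold a match, with the matches in capitals and the strand of the gene read 5′ to 3′. Windows of Cry2 and Nr1d1 that hold a match are not printed.
Arntl, chr7:113207261-113207560, plus strand, TAGGTCA: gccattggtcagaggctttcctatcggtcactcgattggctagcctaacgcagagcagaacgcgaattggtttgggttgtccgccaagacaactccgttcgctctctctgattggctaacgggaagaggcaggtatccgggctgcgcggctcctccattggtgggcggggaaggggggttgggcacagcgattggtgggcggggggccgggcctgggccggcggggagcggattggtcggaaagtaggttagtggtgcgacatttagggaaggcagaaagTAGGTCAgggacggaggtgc
Per3, chr4:151044616-151044915, minus strand, TTATGTAA at 2 places: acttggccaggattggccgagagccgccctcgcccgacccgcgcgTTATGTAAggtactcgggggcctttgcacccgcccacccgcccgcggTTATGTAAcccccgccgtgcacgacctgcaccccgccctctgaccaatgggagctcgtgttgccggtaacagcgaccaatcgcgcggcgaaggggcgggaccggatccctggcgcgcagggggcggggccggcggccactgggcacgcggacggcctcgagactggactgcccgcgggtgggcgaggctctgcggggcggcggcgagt
Cry1, chr10:85185005-85185304, minus strand, AACGTG (the E-box variant read on the other strand) and CACGTG: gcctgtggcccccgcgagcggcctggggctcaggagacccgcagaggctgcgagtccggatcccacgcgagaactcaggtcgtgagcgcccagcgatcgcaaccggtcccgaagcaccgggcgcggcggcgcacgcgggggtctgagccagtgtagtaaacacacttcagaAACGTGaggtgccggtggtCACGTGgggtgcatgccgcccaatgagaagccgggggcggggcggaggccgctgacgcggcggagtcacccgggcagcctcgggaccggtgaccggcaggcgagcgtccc
Per1, chr11:69098699-69098998, plus strand, CACGTG: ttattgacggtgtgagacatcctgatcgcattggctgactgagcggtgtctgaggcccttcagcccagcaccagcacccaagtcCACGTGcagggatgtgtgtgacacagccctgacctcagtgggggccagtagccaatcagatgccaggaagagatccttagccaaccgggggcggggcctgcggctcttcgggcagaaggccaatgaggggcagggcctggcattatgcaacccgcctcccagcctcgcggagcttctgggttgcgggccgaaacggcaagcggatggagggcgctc

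The 9 genes had 13 windows. The E-box lay in 2 of the 13, of Per1 and Cry1, against 7.15% of all 32851 windows. Its variant lay in 3 of the 13, of Cry1, Cry2 and Nr1d1, against 4.68%. The D-box lay in 1 of the 13, of Per3, against 0.938%, and the element TAGGTCA in 1, of Arntl, against 2.61%. Arntl and Per1 had 2 windows each, and the window not printed held no match. TGGGTCA (3.98% of all windows) and the CRE (1.79%) were not found in the windows of the 9 genes. A match is a description of the letters and not a measured binding site.

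The libraries held 47241049 to 49369315 counts. Rprd1b was at 60.5 and 61.6 CPM (counts relative to the TMM-scaled size of the library) in WT and at 26.3 and 29.0 CPM in Vil-CREPTKO, a log2 change of -1.14 with an adjusted p of 0.0041 (edgeR). By Xist and the Y-linked genes, WT replicate 2 came from a female mouse and the other 3 libraries from males. A fit without WT replicate 2 thus compares males alone, but with a lone WT library and no spread within WT. A fit without WT replicate 1 sets the female WT library against male Vil-CREPTKO libraries, so that sex and genotype cannot be told apart in it. Vil-CREPTKO replicate 1 stood apart in its cell markers. Summed over 6 enterocyte genes it had 18525 CPM against 9444 to 12380 CPM in the other libraries. Apoa4 was an exception, at 815 CPM in this library and 1181 CPM in WT replicate 2. Over 4 genes of the crypt base it had 1205 CPM against 1443 to 1842 CPM, and Olfm4 made up 1127 CPM of this sum. Lgr5 and Smoc2 were also lowest in it. Ascl2 was not, at 8.86 CPM in WT replicate 2 and 9.27 CPM in Vil-CREPTKO replicate 1. The 6 fibroblast genes summed to 17.6 CPM there and to 2.04 to 5.83 CPM elsewhere, and Lum and Pdgfra were at 0 counts in Vil-CREPTKO replicate 2. The 5 epithelial genes summed to 7543 to 8450 CPM and the 5 smooth muscle genes to 0.570 to 0.874 CPM. The 6 immune genes summed to 245 and 172 CPM in WT and to 177 and 141 CPM in Vil-CREPTKO, the 4 endothelial genes to 1.98 to 3.37 CPM and the 4 enteric neuron genes to 1.86 to 3.05 CPM. In such bulk RNA, fewer cells of a type and less RNA per cell cannot be told apart.

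Whether loss of CREPT goes with another state of the crypt clock was then read gene by gene. Of the 10 genes, 0 passed edgeR's quasi-likelihood test at an adjusted p of 0.05, where 2.71% of all genes tested passed, 2.29% as lower and 0.423% as higher in Vil-CREPTKO. With an absolute log2 fold change over 1 asked for as well, 0 of the 10 and 1.64% of all genes were called, and 8.57% of all genes but 0 of the 10 had a log2 fold change of that size whatever their p. At an unadjusted p of 0.05, 3 of the 10 genes passed (Arntl, Per3 and Cry1), against 14.3% of all genes tested. DESeq2 also passed 0 of the 10 genes at an adjusted p of 0.05. The median log2 fold change of the 10 genes was 0.24, beside -0.006 over all genes tested. Libraries of the groups did not overlap for 3 of the 10 genes, Arntl, Cry1 and Nr1d1, and the same held for 45.1% of all genes tested. The plot of the 10 genes by library shows these values.

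**Figure D1:**
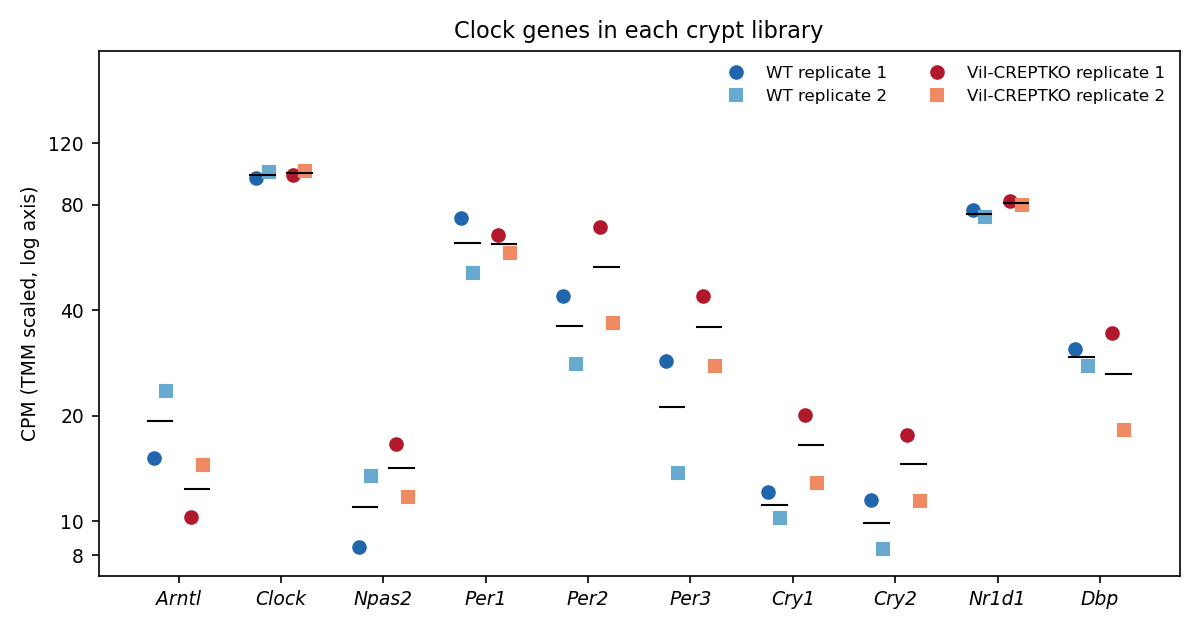
TMM-scaled CPM (log axis) of the 10 clock genes, with 1 point per library and a black bar at the mean of each group (n = 2). Clock and Nr1d1 sit within a narrow band in the 4 libraries, while Per3 runs from 13.8 CPM in WT replicate 2 to 43.9 CPM in Vil-CREPTKO replicate 1 and Arntl from 10.3 to 23.5 CPM in the opposite order of these libraries.

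Among the activators, Arntl had the most negative log2 fold change of the 10 genes. Arntl (ENSMUSG00000055116, chromosome 7, 113207465 to 113314126, plus strand, GRCm38) was at 15.2 and 23.5 CPM in WT and at 10.3 and 14.5 CPM in Vil-CREPTKO. Both Vil-CREPTKO libraries lay under both WT libraries, although the gap between WT replicate 1 and Vil-CREPTKO replicate 2 was small beside the gap within WT. The group means of 19.3 ± 5.86 CPM (SD, n = 2) and 12.4 ± 2.99 CPM (SD, n = 2) gave, as log2 fold change, -0.64 (SE 0.24, 95% interval -1.19 to -0.083, adjusted p 0.265 in edgeR). Without WT replicate 1, which leaves the female WT library against male Vil-CREPTKO libraries, it was -0.92. With WT replicate 2 left out, which leaves males alone, it was -0.29. Leaving out Vil-CREPTKO replicate 1 or 2 gave -0.41 and -0.90, and neither passed. Without the filter on low counts, which widens the test to 28324 genes, the value of -0.64 passed (adjusted p 0.0288 in edgeR).

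The partners of BMAL1 did not share this order. Clock (ENSMUSG00000029238, chromosome 5, 76209868 to 76304792, minus strand) was at 95.4 and 99.4 CPM in WT and at 97.3 and 100.1 CPM in Vil-CREPTKO. The groups overlapped, and the log2 fold change of 0.019 (SE 0.12 with adjusted p 0.967 in edgeR) had an interval from -0.24 to 0.28. Npas2 (ENSMUSG00000026077, chromosome 1, 39193731 to 39363236, plus strand), which can stand in for Clock, was at 8.42 and 13.5 CPM in WT and at 16.6 and 11.8 CPM in Vil-CREPTKO. Its lowest library was WT replicate 1 and its highest Vil-CREPTKO replicate 1, and the groups overlapped. The log2 fold change of Npas2 was 0.37 (SE 0.26 with adjusted p 0.590 in edgeR), or 0.75 among males alone (adjusted p 0.201 in edgeR). It was 0.071 with WT replicate 1 left out, 0.099 with Vil-CREPTKO replicate 1 left out and 0.61 with Vil-CREPTKO replicate 2 left out.

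Of the period genes, Per2 and Per3 had positive log2 fold changes and Per1 stood near 0. Per3 (ENSMUSG00000028957, chromosome 4, 151003652 to 151044665, minus strand) was at 28.7 and 13.8 CPM in WT and at 43.9 and 27.7 CPM in Vil-CREPTKO. WT replicate 2 was far under the other libraries, and WT replicate 1 lay above Vil-CREPTKO replicate 2, so that the groups overlapped. The group means of 21.2 ± 10.6 CPM (SD, n = 2) and 35.8 ± 11.4 CPM (SD, n = 2) gave, as log2 fold change, 0.75 (SE 0.33, 95% interval 0.010 to 1.49, adjusted p 0.341 in edgeR). This size turned on single libraries of both groups. Without WT replicate 1, which leaves the female WT library against males, the log2 fold change was 1.38, whereas among males alone it was 0.32. Leaving out Vil-CREPTKO replicate 1 gave 0.38 and leaving out Vil-CREPTKO replicate 2 gave 1.05, and neither passed. Without the filter on low counts Per3 passed at 0.75 (adjusted p 0.00249 in edgeR).

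Per2 (ENSMUSG00000055866, chromosome 1, 91415982 to 91459324, minus strand), the period gene whose protein is a main brake on the BMAL1 pair, was at 43.9 and 28.1 CPM in WT and at 69.3 and 36.8 CPM in Vil-CREPTKO. Its order of libraries was that of Per3, with WT replicate 2 lowest, Vil-CREPTKO replicate 1 highest and an overlap between the groups. The log2 fold change of Per2 was 0.56 (SE 0.29, 95% interval -0.11 to 1.22, adjusted p 0.445 in edgeR). It was 0.028 when Vil-CREPTKO replicate 1 was left out, and 0.95 when Vil-CREPTKO replicate 2 was, where it passed (adjusted p 0.0248 in edgeR). Per2 also passed without the filter on low counts, at 0.56 (adjusted p 0.0241 in edgeR). Among males alone the log2 fold change of Per2 was 0.27. Per1 (ENSMUSG00000020893, chromosome 11, 69095217 to 69109960, plus strand), which hormones and other acute signals can also induce, was at 73.6 and 51.1 CPM in WT and at 65.6 and 58.2 CPM in Vil-CREPTKO. The Vil-CREPTKO libraries lay between those of WT, and the log2 fold change of -0.0099 (SE 0.17 with adjusted p 0.990 in edgeR) turned sign under RLE and upper-quartile scaling and in DESeq2.

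The cryptochromes, the partners of the PER proteins, had nearly the same log2 fold change. Cry1 (ENSMUSG00000020038, chromosome 10, 85131700 to 85185064, minus strand) was at 12.1 and 10.2 CPM in WT and at 20.1 and 12.9 CPM in Vil-CREPTKO. Both Vil-CREPTKO libraries lay above WT, replicate 2 by little. The log2 fold change of Cry1 was 0.56 (SE 0.23, 95% interval 0.047 to 1.08, adjusted p 0.297 in edgeR), which became 0.21 when Vil-CREPTKO replicate 1 was left out and 0.85 when Vil-CREPTKO replicate 2 was, where it passed (adjusted p 0.0384 in edgeR). Cry2 (ENSMUSG00000068742, chromosome 2, 92403646 to 92434043, minus strand) was at 11.5 and 8.33 CPM in WT and at 17.7 and 11.4 CPM in Vil-CREPTKO. Here WT replicate 1 and Vil-CREPTKO replicate 2 were level. Its log2 fold change was 0.55 (SE 0.25, 95% interval -0.011 to 1.11, adjusted p 0.362 in edgeR), which became 0.20 when Vil-CREPTKO replicate 1 was left out and 0.84 when Vil-CREPTKO replicate 2 was. Among males alone the log2 fold change was 0.44 for Cry1 and 0.34 for Cry2. A transcript on the opposite strand, D930015M05Rik, overlaps 295 bases of Cry2 exons and had 3 to 30 counts in a library.

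Nr1d1 and Dbp, targets of the BMAL1 pair in the coupled loop, were the remaining genes. Nr1d1 (ENSMUSG00000020889, chromosome 11, 98767932 to 98775333, minus strand) was at 77.2 and 73.9 CPM in WT and at 82.1 and 80.1 CPM in Vil-CREPTKO. The groups did not overlap, yet the log2 fold change was 0.10 (SE 0.11, 95% interval -0.15 to 0.36, adjusted p 0.754 in edgeR). Of its exon bases, 8.55% are shared with Thra on the opposite strand, and without a stated strand setting their reads cannot be told apart. Thra was lower in both Vil-CREPTKO libraries (counts of 2735 and 3583) than in either WT library (4118 and 4653). Dbp (ENSMUSG00000059824, chromosome 7, 45705088 to 45710203, plus strand) was at 31.1 and 27.8 CPM in WT and at 34.5 and 18.2 CPM in Vil-CREPTKO. The highest and the lowest of the 4 libraries were thus both Vil-CREPTKO. Its log2 fold change was -0.16 (SE 0.26, 95% interval -0.75 to 0.43, adjusted p 0.849 in edgeR), which became -0.70 when Vil-CREPTKO replicate 1 was left out and 0.23 when Vil-CREPTKO replicate 2 was. Sphk2, on the opposite strand, shares 18.0% of the exon bases of Dbp, and there too the reads cannot be told apart. Like Thra, Sphk2 was lower in both Vil-CREPTKO libraries (counts of 2679 and 2984) than in either WT library (4165 and 5585). Dbp itself ranged from 894 to 1586 counts. The part of such shared reads in the values of Dbp and Nr1d1 was not tested.

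Arntl and Npas2 were then set beside Dbp and Nr1d1, as 4 genes of arms that peak at opposite times of day. Values of the other clock genes are given above and those of the wider network below. Arntl and Dbp had negative log2 fold changes (-0.64 and -0.16) and Npas2 and Nr1d1 positive ones (0.37 and 0.10), and 0 of these 4 genes passed an adjusted p of 0.05 in edgeR or DESeq2. Of the 4, Arntl alone had an unadjusted p under 0.05 in edgeR.

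Between libraries of the same group, the median clock gene differed more than the median gene. The absolute difference between the 2 WT libraries in log2 CPM had a median of 0.50 over the 10 genes and of 0.21 over all genes tested. In Vil-CREPTKO the medians were 0.56 and 0.23. Among the 6493 genes tested whose average level fell in the range of the 10 genes, the medians were lower still, at 0.13 in WT and 0.15 in Vil-CREPTKO. These medians are a description, since the 10 genes were not drawn at random.

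The spread was uneven among the clock genes. In WT the widest gap was in Per3, where the libraries differed 2.08-fold. That is more than in 93.1% of all genes tested and in 99.5% of those in the range of average level of the 10 genes. In Vil-CREPTKO the widest were in Dbp (1.89-fold) and Per2 (1.88-fold). These are more than in 90.5% and 90.3% of all genes tested, and in 99.2% and 99.1% of those in that range. Npas2 differed 1.60-fold within WT and 1.41-fold within Vil-CREPTKO, and Arntl 1.54-fold and 1.41-fold. Clock and Nr1d1 were the steady members, with gaps of 1.04-fold and 1.04-fold in WT and of 1.03-fold and 1.02-fold in Vil-CREPTKO.

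**Figure D2:**
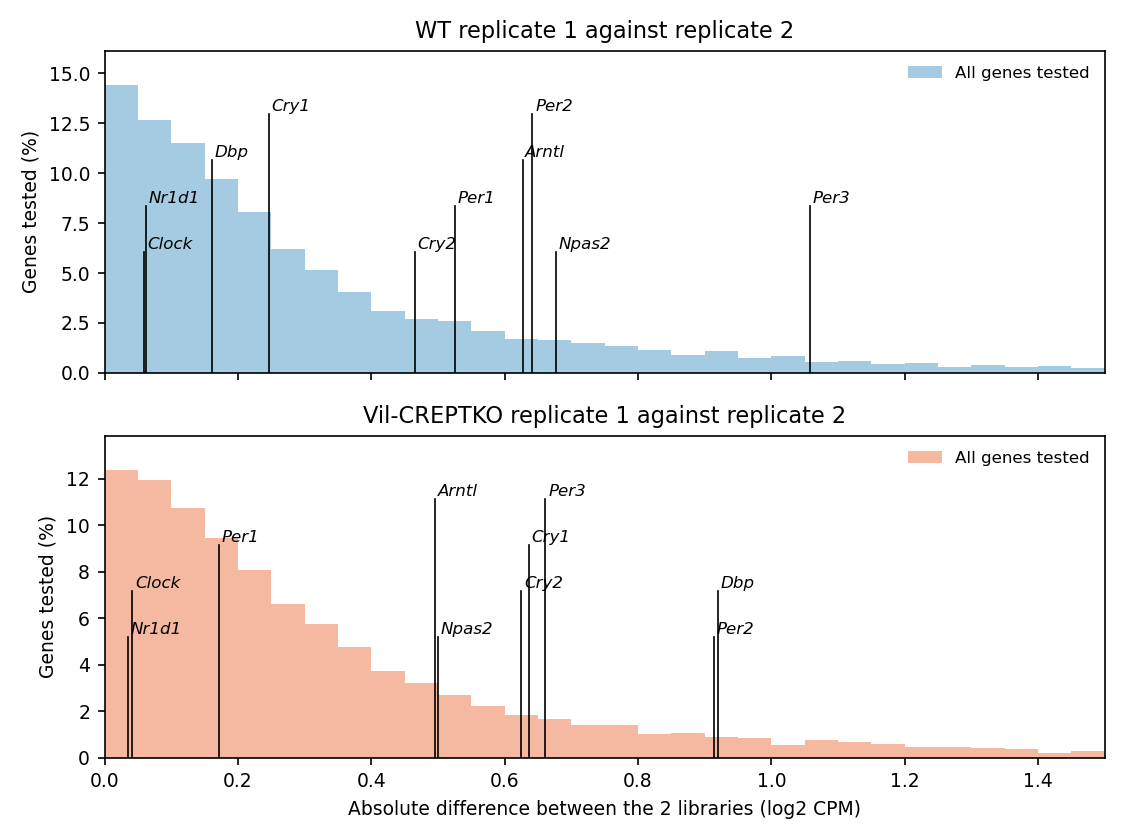
Absolute difference in log2 CPM between the 2 libraries of a group (x axis) for all genes tested (bars, percent of genes per bin, axis ended at 1.5) and for the 10 clock genes (labelled lines, whose height carries no value), WT above and Vil-CREPTKO below. Clock and Nr1d1 lie at the left in both groups, whereas Per2, Per3, Arntl and Npas2 lie to the right of the bulk of the genes in both.

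The genes also kept a common order within the groups. In WT the library with less Arntl was replicate 1, and it had more Per1, Per2, Per3, Cry1, Cry2, Nr1d1 and Dbp. In Vil-CREPTKO the library with less Arntl was again replicate 1, and the same 7 genes were higher in it. Clock went with Arntl in both groups by a small margin, and Npas2 went with Arntl in WT and against it in Vil-CREPTKO. Thus 9 of the 10 genes put replicates 1 and 2 in the same order in both groups, as did 49.2% of all genes tested. Per2, Per3, Cry1, Cry2 and Nr1d1 were lowest in WT replicate 2 and highest in Vil-CREPTKO replicate 1, which held for 5 of the 10 genes and for 9.53% of all genes tested, and Arntl had the reverse order, as did 10.6%. Members of this loop regulate one another and are not independent draws, so both counts are a description alone. The replicate numbers have no stated meaning, and the gaps of Clock and Nr1d1 were at most 1.04-fold. The female library is WT replicate 2, and the library with the highest sums of enterocyte genes and of fibroblast genes is Vil-CREPTKO replicate 1. Its share of mitochondrial counts was 10.2%, against 6.75% to 7.62% in the other libraries. The part of sex, of these markers and of the mitochondrial share in the order was not tested.

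Further genes of the clock network were read in 5 lists of 20 genes, of which 18 were tested (Rorb had 0 counts and Bhlhe41 1 to 4 counts in a library). Of the 18, 0 passed an adjusted p of 0.05 by edgeR or DESeq2 and 4 passed an unadjusted p of 0.05 by edgeR. Their median log2 fold change was 0.080, with 8 negative and 10 positive. Libraries of the groups did not overlap for 9 of the 18, beside 45.1% of all genes tested.

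Receptors of the coupled loop compete for the same elements near Arntl, REV-ERB as repressors and ROR as activators. Nr1d2, which encodes REV-ERBβ, was at 96.8 and 79.9 CPM in WT and at 129 and 101 CPM in Vil-CREPTKO. Its groups did not overlap (log2 fold change 0.38, SE 0.16, adjusted p 0.316 in edgeR). The log2 fold change was 0.19 with Vil-CREPTKO replicate 1 left out, 0.55 with Vil-CREPTKO replicate 2 left out and 0.25 among males alone. Rora was at 0.999 and 0.670 CPM in WT and at 2.09 and 1.04 CPM in Vil-CREPTKO. Its log2 fold change was 0.90 (SE 0.48 with adjusted p 0.450 in edgeR). That value became 0.31 without Vil-CREPTKO replicate 1, 1.33 without Vil-CREPTKO replicate 2 and 0.64 among males alone.

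D-box factors are DBP, TEF and HLF, which activate, and NFIL3, which represses through the same element. Tef was at 96.9 and 79.8 CPM in WT and at 139 and 102 CPM in Vil-CREPTKO, with no overlap between the groups (log2 fold change 0.44, SE 0.17, adjusted p 0.277 in edgeR), and passed without Vil-CREPTKO replicate 2 (0.66, adjusted p 0.0445 in edgeR) but not without Vil-CREPTKO replicate 1 (0.20, adjusted p 0.711 in edgeR). Among males alone the log2 fold change of Tef was 0.31. Nfil3 was at 5.78 and 7.40 CPM in WT and at 3.84 and 5.03 CPM in Vil-CREPTKO, the library order of Arntl (log2 fold change -0.57, SE 0.25, adjusted p 0.340 in edgeR). Among males alone the log2 fold change of Nfil3 was -0.38. Hlf was at 9.60 and 8.21 CPM in WT and at 9.99 and 3.40 CPM in Vil-CREPTKO. As in Dbp, Vil-CREPTKO replicate 2 was the lowest library, and the log2 fold change of Hlf was -0.42 (SE 0.41 with adjusted p 0.723 in edgeR), with -1.39 without Vil-CREPTKO replicate 1, where it passed (adjusted p 0.0169 in edgeR), and 0.17 without Vil-CREPTKO replicate 2.

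Ciart and Bhlhe40 are further repressors of the loop. Ciart, which encodes the repressor CHRONO, was at 7.03 and 2.01 CPM in WT and at 7.96 and 5.89 CPM in Vil-CREPTKO. WT replicate 2 was the low library, as for Per3, and the WT libraries differed 3.45-fold, more than in 98.0% of genes. The log2 fold change of Ciart was 0.61 (SE 0.48 with adjusted p 0.642 in edgeR). It was 1.78 without WT replicate 1, where the only WT library is female, and -0.022 among males alone. Bhlhe40, another repressor at E-boxes, had a log2 fold change of -0.20 (SE 0.12 with adjusted p 0.526 in edgeR) and Arntl2, the paralog of Arntl, of -0.072 (SE 0.50 with adjusted p 0.972 in edgeR) at 1.13 CPM or less.

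**Figure D3:**
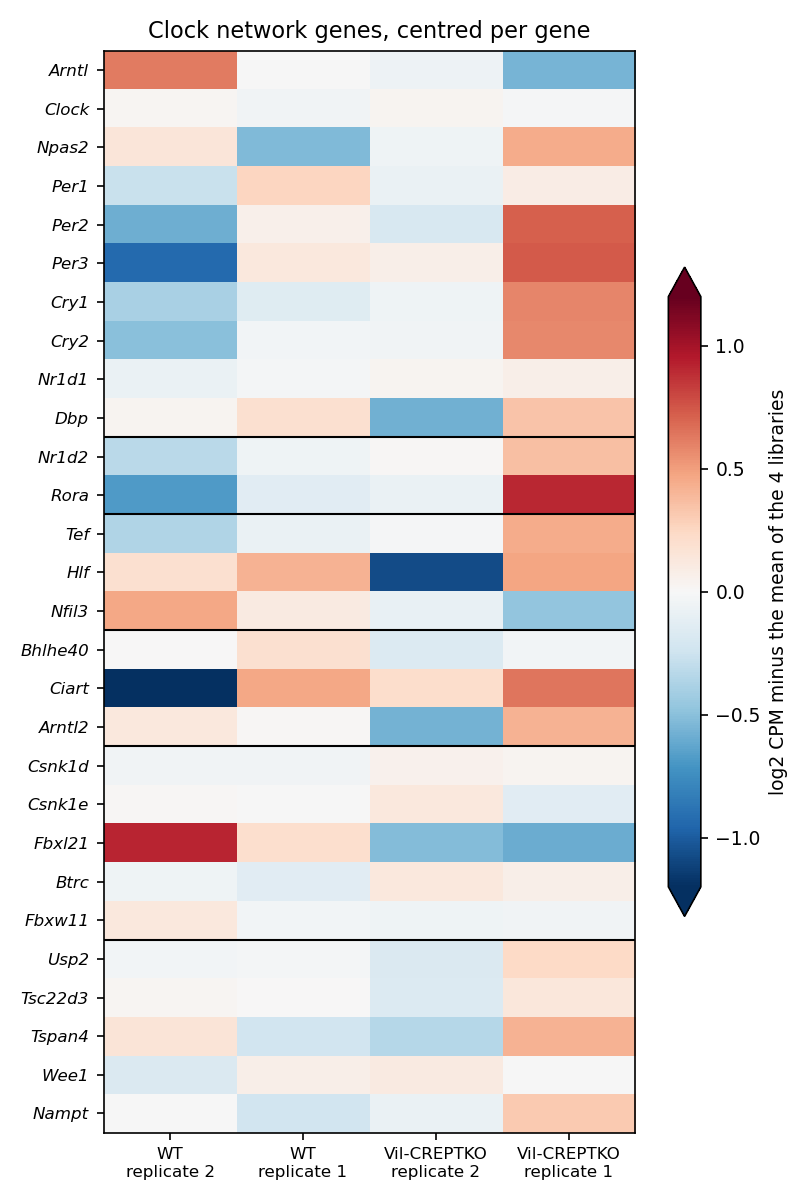
Heat map of log2 CPM minus the mean of the 4 libraries for the 10 clock genes (top block) and the 18 other network genes tested (blocks for REV-ERB and ROR, D-box factors, other repressors and activators, protein turnover, rhythmic outputs), with the libraries as columns. From left to right these are WT replicate 2, WT replicate 1, Vil-CREPTKO replicate 2 and Vil-CREPTKO replicate 1, and a gradient across them depends on this order. Arntl, Nfil3 and Fbxl21 pass from high in WT replicate 2 to low in Vil-CREPTKO replicate 1, and Per2, Per3, Cry1, Cry2, Nr1d2, Rora and Tef the other way. Ciart in WT replicate 2 (-1.32) lies beyond the colour scale.

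Genes for the turnover of clock proteins, Fbxl21 apart, had log2 fold changes between -0.094 and 0.19. Csnk1d and Csnk1e, kinases of the PER proteins, had log2 fold changes of 0.084 (SE 0.13) and -0.0029 (SE 0.17). Btrc and Fbxw11, which mark PER proteins for breakdown, had 0.19 (SE 0.16) and -0.094 (SE 0.12). Fbxl21, which encodes an F-box protein that binds cryptochromes, was at 1.43 and 2.38 CPM in WT and at 0.805 and 0.855 CPM in Vil-CREPTKO. Its log2 fold change of -1.19 (SE 0.41) was the most negative of the network without passing the test (adjusted p 0.211 in edgeR). It rested on 35 to 117 counts in a library and was -0.78 among males alone. The groups did not overlap for 4 of the 5 turnover genes, Csnk1d, Btrc, Fbxw11 and Fbxl21, where 45.1% of all genes tested did not. Of the outputs that cycle in many tissues, Usp2, Wee1, Nampt, Tspan4 and Tsc22d3 had log2 fold changes of -0.020 to 0.24, and their groups were apart in 0 of the 5.

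**Figure D4:**
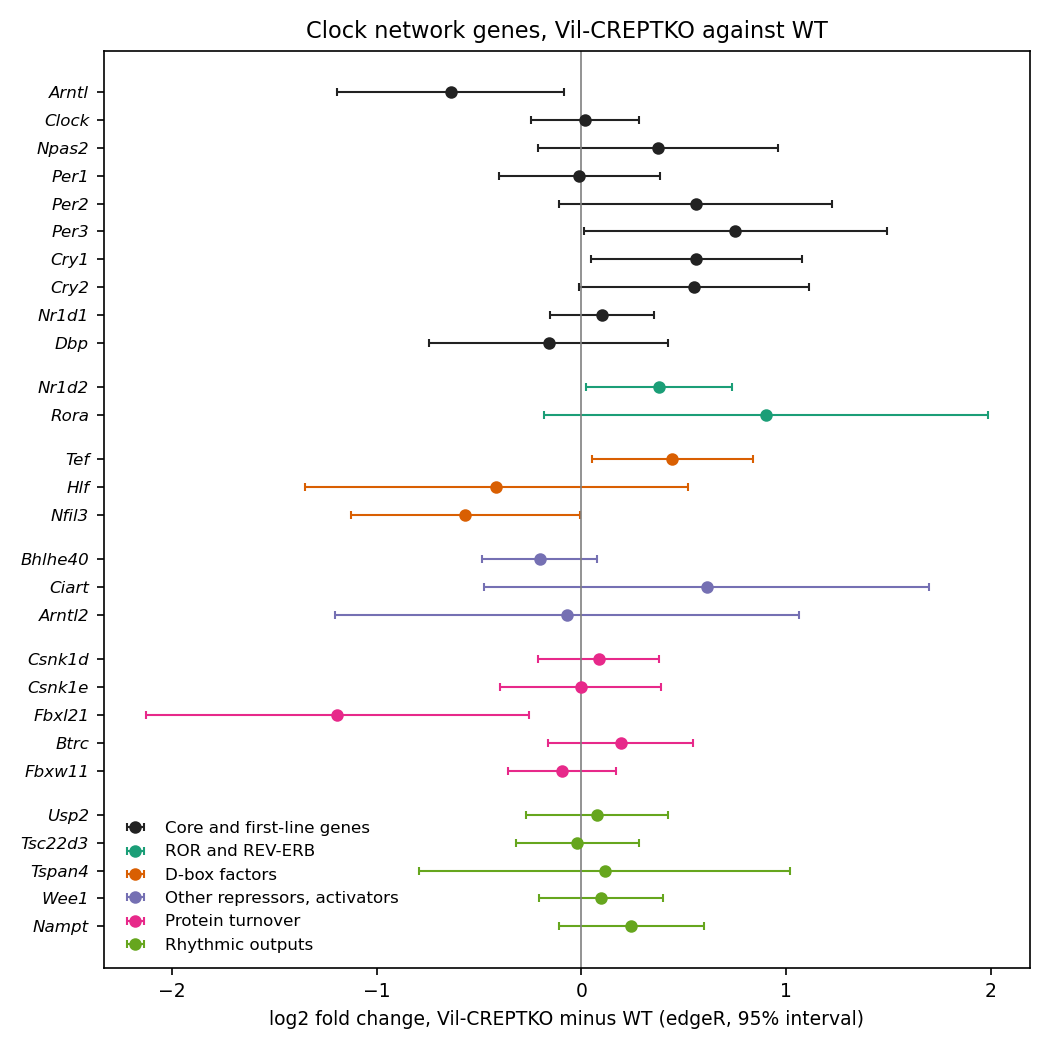
Log2 fold change of Vil-CREPTKO against WT with its 95% interval (edgeR quasi-likelihood, n = 2 libraries a group) for the 10 clock genes (black, at the top) and the 18 other network genes, coloured by list. Intervals of Arntl, Per3, Cry1, Nr1d2, Tef, Nfil3 and Fbxl21 do not reach 0 before adjustment, and after adjustment over all genes 0 of them passed.

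Levels of different genes were compared per kilobase of summed exons. In WT, Nr1d1 was the most abundant of the 10 (24.5 CPM per kb) and Cry2 the least (1.57 CPM per kb), a 15.6-fold range. Between them came Per1 (11.1), Dbp (9.83), Clock (7.10), Per2 (6.14), Cry1 (3.34), Arntl (2.57), Npas2 (2.29) and Per3 (2.21), all as mean CPM per kb. The WT libraries overlapped between Per1 and Dbp, between Clock and Per2, and between each neighbour from Cry1 down to Cry2, so that the order within these was not set. In Vil-CREPTKO, Arntl had a mean of 1.65 CPM per kb and Cry2 of 2.30 CPM per kb, and their libraries overlapped.

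Genes outside the clock with the nearest library pattern were looked up by the root mean square distance of their centred log2 CPM over the 4 libraries, among 11978 genes. Nearest to Arntl were Plekhg1 (distance 0.040), Socs1 (0.055) and Ang4 (0.062), and nearest to Dbp were Parp8 (0.031), Btbd8 (0.037) and Ppm1j (0.039). Within a distance of 0.25 there were 469 genes for Arntl and 592 for Dbp, so that likeness over 4 libraries singles out no small group.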

How the data were processed

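RNA-seq of intestinal crypts from 2 WT and 2 Vil-CREPTKO mice was analysed, with groups and replicate numbers from the sample titles. The values were whole-number read counts per Ensembl gene, deposited by the authors with no normalization. The study's methods name Bowtie2 and RSEM on GRCm38.p6, and the submitters' processing notes add CASAVA 1.8. The annotation behind the counts and the strand setting are not given in the sources used here. Symbols, coordinates and summed exon lengths came from GENCODE M21 (GRCm38), which matched 99.1% of 53845 identifiers, and promoter windows from RefSeq.

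In R 4.3.3, edgeR 4.0.16 kept 17504 genes (filterByExpr), scaled libraries by TMM and fitted a quasi-likelihood model with the group as its term in which each test was two-sided. Benjamini-Hochberg adjustment ran over every gene tested. Called means an adjusted p under 0.05 with an absolute log2 fold change over 1. Gaps and profile distances used log2 CPM with a prior count of 2. The fit was tested on simulated data.

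The 10 genes and the lists were chosen with earlier results of these data known. The text names the 10 genes, the other network genes tested (2 more are not reported here and were left out of the lists), Rprd1b and the 3 genes nearest in profile to Arntl and to Dbp. No adjusted p was computed over a list alone, and lists were not tested as sets. Alternatives were DESeq2 1.42.0, other scalings and filters, a likelihood ratio test, a replicate term and each library left out. The study's methods count the replicates as biological, and p-values measure the spread between these libraries. Between the libraries of a group, chi-square per gene was 49.8 in WT and 70.1 in Vil-CREPTKO, so that no library was a copy of another.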

Additional observations from a re-analysis of the deposited data

How the results depend on the processing

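With 2 libraries a group, single libraries decided most of what moved. The number of the 10 clock genes past an adjusted p of 0.05 was 0 under edgeR with TMM. It stayed at 0 with DESeq2, the 3 other scalings, the likelihood ratio test and at least 10 counts in every library. Without the filter on low counts 1 gene was lower (Arntl) and 2 were higher (Per2 and Per3). With 1 library left out, 0 to 1 were lower, 0 to 2 higher and 0 to 1 called, and 0 to 1 of the other network genes passed. A lone library was then assumed to vary like the others. Counts over all genes moved by over 1.5 times, to 908 lower and 325 higher without the filter, 743 and 222 in the likelihood ratio test and 627 and 184 in DESeq2. Of these counts, higher genes alone moved so far with a library left out, to 142 when WT replicate 1 was dropped and 234 when Vil-CREPTKO replicate 2 was.

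With the replicate block, that is the replicate number as a term, 1 clock gene was higher, Per3 (log2 fold change 0.81, edgeR adjusted p 0.0265), and the block changed no other call among the clock genes and the other network genes. Over all genes, 400 were lower and 74 higher under edgeR with TMM and 452 and 106 with the block. Deviations of the libraries numbered 1 correlated at 0.028 over genes, and the labels give the numbers no meaning, so that the numbers were not taken as pairs.

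Directions near 0 turned. With library-size scaling the log2 fold change was -0.072 for Clock, -0.0086 for Csnk1d and -0.027 for Usp2. With RLE scaling it was 0.0094 for Per1 and 0.015 for Csnk1e, with upper-quartile scaling 0.019 for Per1, 0.030 for Csnk1e and 0.014 for Tsc22d3, with DESeq2 0.0078 for Per1 and 0.013 for Csnk1e, and with the replicate block 0.011 for Per1. With a library left out, ranges that crossed 0 were -0.011 to 0.050 for Clock, -0.25 to 0.28 for Per1, -0.70 to 0.23 for Dbp, -1.39 to 0.17 for Hlf, -0.022 to 1.78 for Ciart, -0.68 to 0.36 for Arntl2, -0.13 to 0.12 for Csnk1e, -0.15 to 0.27 for Usp2, -0.18 to 0.12 for Tsc22d3, -0.33 to 0.46 for Tspan4 and -0.019 to 0.22 for Wee1. The cause was not tested. Arntl stayed negative and Npas2, Per2, Per3, Cry1, Cry2 and Nr1d1 positive under the 12 alternatives. The median gaps between libraries over the 10 genes moved by less than their spread under the other scalings and filters.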

Other observations

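Genes that respond to glucocorticoids, hormones that themselves cycle over the day and can induce Per1, were read as a list of 6 with Per1 and Tsc22d3 among them. Of the 6, 0 passed an adjusted p of 0.05 by edgeR and 0 an unadjusted p of 0.05, and their median log2 fold change was 0.080. DESeq2 also passed 0 of the 6 on either threshold, and likewise 0 in the next 2 lists. Genes of this and the next lists are named after their values were seen. In Zbtb16 and Fkbp5 replicates 1 and 2 lay far apart in both groups, and Sgk1 differed 2.04-fold within Vil-CREPTKO and 1.02-fold within WT. Zbtb16 was at 8.72 and 0.406 CPM in WT and at 10.6 and 1.34 CPM in Vil-CREPTKO. In each group replicate 1 was the high library, as for Per1, and the gaps were 19.6-fold and 7.67-fold, more than in 99.9% and 99.7% of all genes tested. Fkbp5, a feedback gene of the glucocorticoid receptor, was at 139 and 46.2 CPM in WT and at 130 and 66.9 CPM in Vil-CREPTKO, again with replicate 1 high in each group. Sgk1, Klf9 and Tsc22d3 did not share this order in WT.

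Immediate early genes, which rise within minutes of a stimulus such as handling, had 0 of 7 past an adjusted p of 0.05 and 0 past an unadjusted p of 0.05 by edgeR (median log2 fold change -0.22). Fos was at 56.8 and 81.0 CPM in WT and at 94.9 and 60.7 CPM in Vil-CREPTKO, an order unlike that of the Per genes. Of 4 nutrient transporters known to cycle in the gut, 0 passed either threshold by edgeR (median 0.15). Slc15a1, the peptide transporter, was at 273 and 416 CPM in WT and at 488 and 326 CPM in Vil-CREPTKO. The groups overlapped for all 4, and the order of libraries was shared by the summed enterocyte genes in its highest library, Vil-CREPTKO replicate 1, and its lowest, WT replicate 1 (for Slc5a1 and Slc15a1). The part of the enterocyte share in these values was not tested.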
